A study of Mus musculus with 80 samples.

Results

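Gene deserts are long stretches of a chromosome without genes, and the H3K9me2 signal over them was followed as mouse embryonic stem cells (ESCs) moved from serum to 2i. A desert bin was defined here as a 2-kb bin of the autosomes that lies 500 kb or more from the start and the end of every gene row in the study's expression table. By this rule 55518 of 995960 autosomal bins in the ChIP-seq table were desert bins, and the whole table held 1026637 bins. The rule used only positions, while the single blocks, bins and promoters named below were in part picked by their H3K9me2 values, as said beside them. Chromatin immunoprecipitation with an antibody to H3K9me2 was carried out on wild-type E14 ESCs in 3 conditions: serum, 24 h after the switch to 2i, and long-term 2i (LT2i, for which the labels give no duration). Each condition had 2 bound libraries and 1 input library, which is sonicated chromatin sequenced without antibody, with 14396552 to 23785128 reads in bins per library. RNA-seq of E14 ESCs covered serum and 6, 24 and 72 h of 2i with 3 replicates each, so 72 h and LT2i are different times. All cells are the same wild-type line, and the study calls its expression replicates biological. For the ChIP-seq replicates no source used here says whether they are separate cultures, so the spread between them may be technical.

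H3K9me2 is dimethylation of lysine 9 on histone H3. It is written mainly by the paired methyltransferases G9a (Ehmt2) and GLP (Ehmt1) and covers broad domains of silent chromatin, many of which lie against the nuclear lamina at the edge of the nucleus. Serum medium keeps ESCs in a heterogeneous pluripotent state, whereas 2i is serum-free and contains inhibitors of MEK and GSK3. Reads of one library only show how the signal is shared out over the genome. The study reports, from western blot and immunofluorescence, a global loss of the mark after the switch of medium. Of its ChIP-seq it states that the pattern as a whole was unchanged and that weakly enriched regions flattened further. A loss that touched all regions in proportion would leave the values here as they are. Every value here is therefore relative to the rest of the same library. Where the mark is said below to rise in bins, windows or blocks, its share rose, and whether its absolute amount rose or fell there was not tested.

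The content of desert bins was read from the RefSeq annotation of GRCm38.p6. It shares most genes with the expression table behind the rule (19820 rows carry a RefSeq symbol), so a low gene content in deserts is largely fixed by that rule and is given as a description. No RefSeq gene overlapped 90.4% of the desert bins, against 42.0% of the other autosomal bins. Of the 559 RefSeq genes that touch a desert bin, 260 were pseudogenes and 203 long non-coding RNAs (lncRNAs), and only 9 coded for protein. Most of the coding overlap came from long genes of neurons whose rows in the expression table span only part of the RefSeq gene, namely Lsamp (a cell adhesion protein, 450 bins), Rbfox1 (a splicing factor, 198 bins) and Dpp10 (a potassium channel partner, 120 bins). The guidance receptors Robo2 and Robo1 added 58 and 53 bins. Deserts are thus not empty of annotation. The share of bins in deserts ran from 1.74% of chromosome 19 to 10.0% of chromosome 16. No bin of the table has fewer than 7, 8 and 6 reads in the serum, 24 h and LT2i inputs, and the table held 75.6% of the 2-kb positions in deserts and 83.6% of those elsewhere.

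The few gene starts inside deserts differ in sequence from those elsewhere. RefSeq places 140 promoter windows (250 bases before to 50 after a start) of 125 genes in desert bins, and 97.9% of these belong to lncRNAs. Of 28525 other autosomal windows 36.3% belong to lncRNAs and 63.7% to coding genes. No comparison within lncRNAs was made, so gene type and position cannot be told apart in the values that follow. The median GC content of desert windows was 42.3%, against 54.0% for the others, and the median number of CpG dinucleotides was 2 against 8. Windows with 10 or more CpG made up 2.14% of the desert promoters (3 of 140) and 46.9% of the others. The 5 windows printed here, chosen after their values were seen, show the range. The first 3 are all desert windows with 10 or more CpG, the fourth lies in the bin with the lowest and the fifth in the bin with the highest LT2i value over input among desert promoters. Capitals mark each CpG, and sequences are from RefSeq, 5′ to 3′ on the strand of the gene.
4930402F11Rik (lncRNA, chr7:69495844-69496143, plus strand, 14 CpG): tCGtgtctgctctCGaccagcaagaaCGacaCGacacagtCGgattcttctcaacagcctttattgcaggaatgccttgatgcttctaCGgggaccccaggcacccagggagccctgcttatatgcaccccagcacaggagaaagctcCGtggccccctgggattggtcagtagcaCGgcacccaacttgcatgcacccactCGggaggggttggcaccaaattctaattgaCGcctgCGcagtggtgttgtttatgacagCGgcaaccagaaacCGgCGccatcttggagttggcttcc
Lsamp (coding, chr16:39984114-39984413, plus strand, 12 CpG): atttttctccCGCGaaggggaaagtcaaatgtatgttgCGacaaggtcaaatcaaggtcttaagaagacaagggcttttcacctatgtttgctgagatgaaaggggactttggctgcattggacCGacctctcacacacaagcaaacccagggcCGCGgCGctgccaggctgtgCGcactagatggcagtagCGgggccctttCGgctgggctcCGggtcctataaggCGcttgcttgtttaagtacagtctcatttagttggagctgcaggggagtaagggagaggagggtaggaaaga
Gm32810 (lncRNA, chr1:112416869-112417168, minus strand, 11 CpG): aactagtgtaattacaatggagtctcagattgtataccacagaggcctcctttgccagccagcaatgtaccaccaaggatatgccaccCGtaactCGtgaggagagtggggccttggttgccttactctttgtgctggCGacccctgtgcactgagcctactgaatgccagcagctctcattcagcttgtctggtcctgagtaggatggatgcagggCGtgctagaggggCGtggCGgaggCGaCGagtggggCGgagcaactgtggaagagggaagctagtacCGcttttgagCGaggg
Gm38584 (lncRNA, chr7:69490988-69491287, minus strand, 4 CpG): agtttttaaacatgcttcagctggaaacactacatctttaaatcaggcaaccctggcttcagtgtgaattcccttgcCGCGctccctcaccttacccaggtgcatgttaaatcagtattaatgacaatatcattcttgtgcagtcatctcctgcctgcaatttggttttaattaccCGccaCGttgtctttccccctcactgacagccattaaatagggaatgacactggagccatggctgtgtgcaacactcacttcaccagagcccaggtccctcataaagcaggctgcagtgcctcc
Gm17751 (lncRNA, chr1:76488883-76489182, plus strand, 3 CpG): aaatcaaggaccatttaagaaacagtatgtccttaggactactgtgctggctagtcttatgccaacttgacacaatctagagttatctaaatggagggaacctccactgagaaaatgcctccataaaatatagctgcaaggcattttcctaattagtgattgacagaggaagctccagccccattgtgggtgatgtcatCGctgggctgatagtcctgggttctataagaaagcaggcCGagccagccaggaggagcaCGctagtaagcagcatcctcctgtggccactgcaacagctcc

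The 2-kb bin at the Lsamp start held 1 and 8 reads in the serum bound libraries, 0 and 5 at 24 h and 4 and 4 in LT2i, beside 8, 12 and 17 reads in the serum, 24 h and LT2i inputs. Its mean log2 ratio of bound to input was -1.45, -1.82 and -2.21 in these conditions. The Gm32810 bin was also low, at -1.50, -1.17 and -1.74. The 4930402F11Rik window has the most CpG of the desert promoters, but only part of it lies in the bin of its start. That bin (chr7:69496001-69498000) stood above input in serum (0.89) and LT2i (1.65) and below it at 24 h (-0.27). The Gm38584 bin, close by on the same chromosome, held at most 2 reads in any bound library and 7, 16 and 18 in the inputs. The Gm17751 bin went the other way, with 31 and 23 reads in serum, 32 and 27 at 24 h and 46 and 24 in LT2i, over inputs of 18, 15 and 6. Single bins rest on few reads, and the 6 input reads of the last bin are the lowest the table lists.

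Over all desert promoters the median log2 ratio to input of the bin at the start was 0.46 in serum, 0.37 at 24 h and 0.48 in LT2i, whereas the other autosomal promoters stood at -1.88, -1.86 and -2.65. The windows were also grouped by CpG content. With 1 to 4 CpG, 105 desert windows had medians of 0.49, 0.39 and 0.44, and 8546 other windows -0.08, -0.15 and -0.62. Without any CpG, 17 desert windows had medians of 0.11, 0.17 and 0.50 and 1237 others 0.15, 0.18 and 0.15. With 5 to 9 CpG, 15 desert windows had medians of 0.53, 0.64 and 0.80 and 5354 others -0.96, -1.01 and -1.97. The 3 desert windows with 10 or more CpG had medians of -1.45, -1.17 and -1.74, beside -3.69, -3.41 and -3.71 for 13388 others. Among these 3, Lsamp and Gm32810 were low, while 4930402F11Rik stood above input in serum and LT2i, as given above. The hexamer TATAAA, or its reverse complement TTTATA, was found in 26.4% of desert and 12.8% of other windows. These are counts over windows that share bins and alternative starts, and carry no test. The sets of windows also differ in gene type, as given above.

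Desert bins took a larger share of the reads of every bound library than of every input. The share was 5.74% and 6.23% of autosomal reads in the serum bound libraries, 6.43% and 6.44% at 24 h, and 7.01% and 7.51% in LT2i. The inputs gave 4.75% in serum, 4.85% at 24 h and 5.11% in LT2i. No bound library overlapped an input, and the 3 conditions did not overlap each other. The share in the input itself rose along the same order, so each bound library was set against the input of its own condition.

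**Figure D1:**
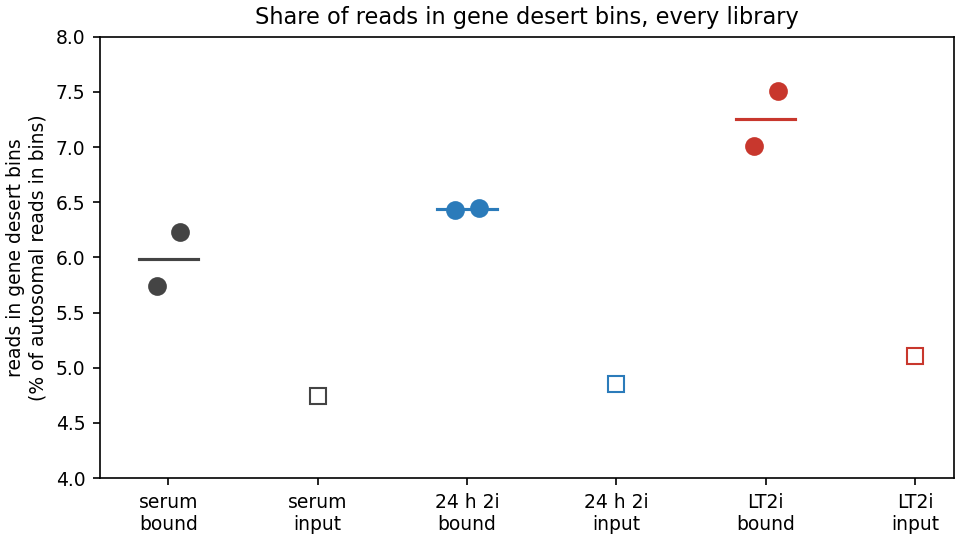
Share of autosomal reads that fall in gene desert bins (%, vertical axis, which starts at 4%) for the 6 bound libraries (filled circles, lines are means of 2) and the 3 inputs (open squares). Bound libraries lie between 5.74% and 7.51% and inputs between 4.75% and 5.11%.

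Relative to its own input, the ratio of desert to other reads was higher by 0.29 and 0.41 on the log2 scale in serum, 0.43 and 0.43 at 24 h, and 0.49 and 0.59 in LT2i. The means were 0.351 ± 0.088 (SD, n = 2), 0.432 ± 0.0031 and 0.538 ± 0.0749, which are 1.28-, 1.35- and 1.45-fold. Averaged over conditions the enrichment was 0.441, with p = 0.0370 in an exact two-sided permutation of the input label within conditions, the smallest p that 27 arrangements allow. It held for all 6 bound libraries. The change from serum was 0.0812 to 24 h and 0.187 to LT2i, and both libraries of each later condition lay above both serum libraries. Without serum replicate 1 the change to 24 h was 0.0190 and that to LT2i 0.1249. The change to LT2i was 0.298 over the mean of the 3 inputs and 0.457 as a difference of mean log2 reads. With 2 against 2 libraries an exact permutation test cannot go below p = 0.33, which both changes gave. The SD of the serum replicates (0.088) was larger than the change to 24 h.

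The comparison depends on which bins stand for the rest of the genome. Split by distance to the nearest gene row, bins inside a gene row had mean log2 ratios to input of -0.226 in serum, -0.280 at 24 h and -0.397 in LT2i. Bins under 10 kb from a gene row were at or just below these values, at -0.286, -0.280 and -0.406. Beyond 10 kb the ratio was higher with distance and was highest between 250 and 500 kb, at 0.390, 0.446 and 0.585. Desert bins between 500 and 750 kb had 0.360, 0.425 and 0.532, those between 750 kb and 1 Mb 0.312, 0.396 and 0.486, and those at 1 Mb or more 0.288, 0.383 and 0.464. H3K9me2 thus did not go on rising into the deserts but lay slightly lower in their most remote parts, in all 6 libraries. Against bins 100 to 500 kb from a gene in place of all others, the enrichment of deserts was -0.0451 (exact permutation p = 0.148). The change from serum was then 0.0291 to 24 h and -0.0122 to LT2i. At the 500 kb limit itself the values ran on without a step. The median over 1671 bins just inside (500 to 510 kb) was 0.38, 0.41 and 0.50, and over 1689 bins just outside (490 to 500 kb) 0.37, 0.38 and 0.47.

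**Figure D2:**
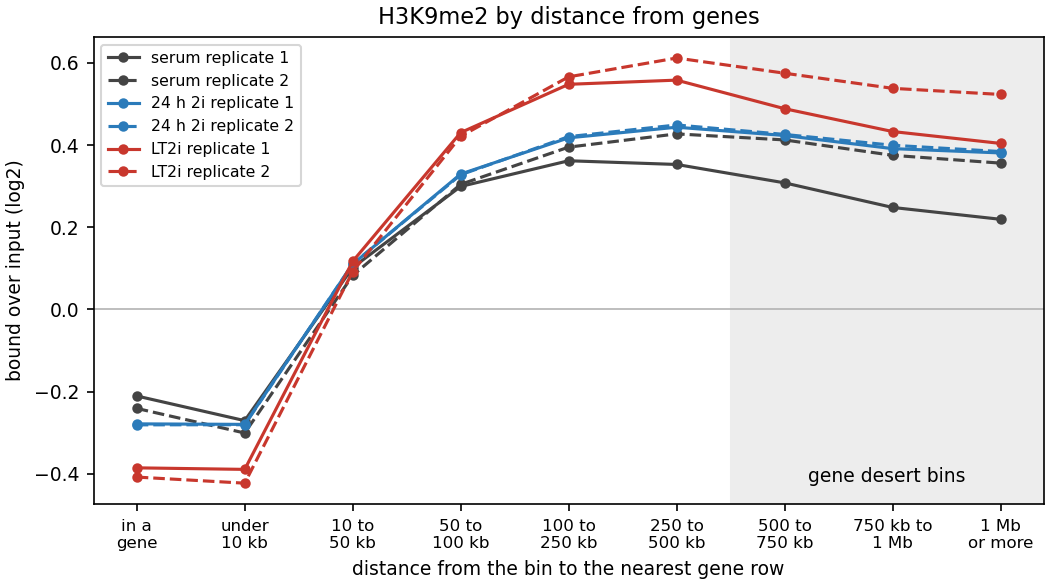
Mean H3K9me2 over input (log2, vertical axis) in bins grouped by distance to the nearest gene row (horizontal axis), 1 line for each bound library. Grey shading marks gene desert bins, where all lines lie above 0 and below their own level at 250 to 500 kb.

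Desert bins also varied less among themselves than other bins. The median desert bin stood at 0.305 in serum, 0.360 at 24 h and 0.428 in LT2i (log2 over input, mean of 2), against 0.018, -0.023 and -0.183 for other bins. The interquartile range was 0.731, 0.742 and 0.959 in deserts and 1.34, 1.48 and 2.44 elsewhere. Strongly depleted bins, with a log2 ratio below -1, made up 2.09%, 2.04% and 3.95% of desert bins but 22.1%, 24.5% and 34.5% of the others. Bins above 1 were less different, with 9.44%, 11.5% and 19.96% in deserts and 6.99%, 7.30% and 13.0% elsewhere. Bins 100 to 500 kb from a gene were much like desert bins in this, with interquartile ranges of 0.735, 0.759 and 0.991 and with 2.74%, 3.17% and 5.68% of bins below -1. Their medians were 0.360, 0.394 and 0.501, and 11.1%, 12.7% and 23.5% of them stood above 1, all higher than in deserts. Both sets broadened in LT2i. Part of the width of single bins is counting error, at a median of 14 and 16 reads per bin in the LT2i bound libraries and 14 to 23 over all libraries.

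**Figure D3:**
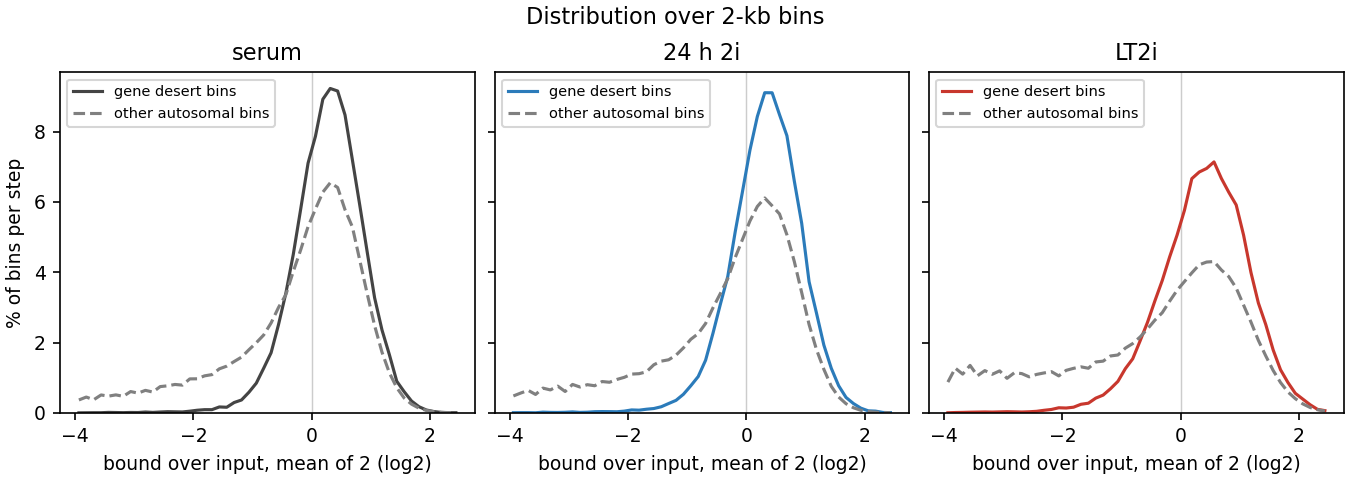
Percent of bins in each step of the histogram (vertical axis) by H3K9me2 over input (log2, mean of 2 bound libraries, horizontal axis, shown from -4) for gene desert bins (solid) and other autosomal bins (dashed) in each condition. The dashed lines carry a long tail below -1 that the solid lines lack.

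Desert bins were grouped into blocks, runs of desert bins in which no more than 10 kb is missing from the table. There were 594 blocks, and the 364 of 100 kb or more held 51964 of the 55518 bins. Missing bins split many gene-free intervals, so the blocks fall in only 219 intervals, of which 107 hold 1 block and the others up to 25. Of these intervals 218 lie between a pair of neighbouring genes, and the remaining one is at a chromosome end. Blocks of 1 interval are therefore not independent. Of the 364 blocks, 350 stood above input in serum, all 364 at 24 h and 362 in LT2i. Both LT2i libraries lay above both serum libraries in 225 blocks and below in 22, and they overlapped in 117. Over all 100-kb windows of the autosomes the same pattern was seen in 38.1% (above) and 45.4% (below). The blocks had a median length of 266 kb, so the units differ. No share over like units was computed for blocks or intervals. At 24 h both libraries were above in 186 blocks and below in 14, where the genome-wide shares were 28.6% and 30.3%. By interval, 104 of 176 with 50 or more desert bins were above serum in LT2i and 10 below. The chromosomes gave the same picture, since desert bins exceeded the other bins of their own chromosome over input on all 19 autosomes in every condition. Both LT2i libraries were above serum on 15 of 19 and on none below, with changes of 0.0163 (chromosome 16) to 0.394.

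The order of the blocks shifted between serum and LT2i. Across the 364 blocks, replicates of 1 condition correlated with r = 0.943 (serum), 0.927 (24 h) and 0.956 (LT2i), whereas the mean in serum correlated with r = 0.837 with 24 h and 0.372 with LT2i. These are descriptions over blocks that share libraries and inputs. The SD over blocks was 0.171 in serum, 0.145 at 24 h and 0.211 in LT2i. The median change to LT2i was larger in shorter blocks. It was 0.264 for the 166 blocks of 100 to 250 kb, 0.153 for 118 of 250 to 500 kb, 0.126 for 68 of 500 kb to 1 Mb and 0.0747 for the 12 of 1 Mb or more. Serum levels rose slightly along the same classes, from 0.269 to 0.341. Flanking genes were also counted as above the floor of the expression table when they were so in 3 or more libraries. Blocks without such a flank (26) changed by a median of 0.0827, those with 1 (163) by 0.189 and those with 2 (175) by 0.193.

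**Figure D4:**
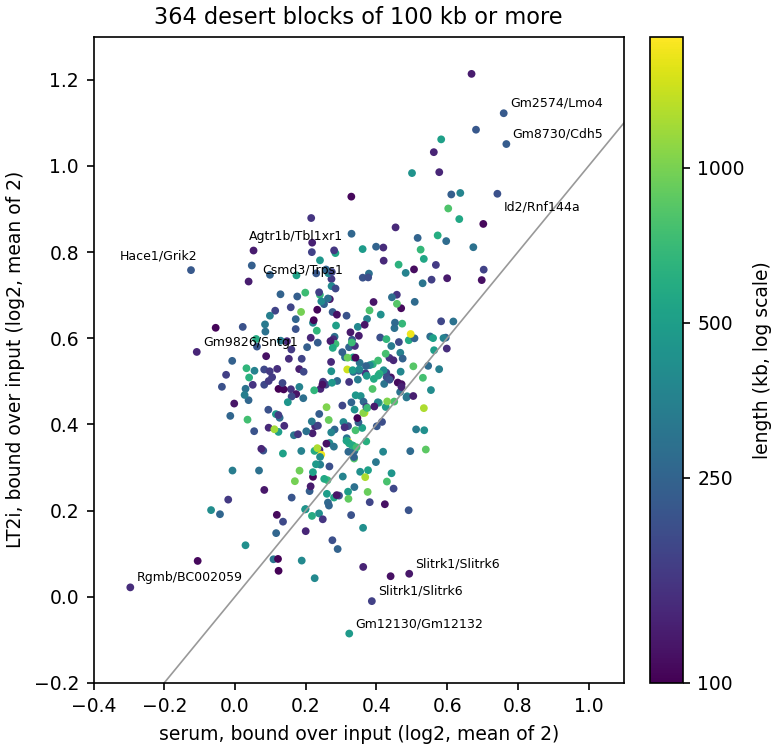
H3K9me2 over input in serum (horizontal axis) and LT2i (vertical axis), log2, means of 2 libraries, for the 364 desert blocks of 100 kb or more, coloured by length. The line marks equal values, most blocks lie above it, and the labels give the flanking genes of the named blocks.

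Of the 5 longest blocks, 3 had overlapping values in serum and LT2i. The longest, chr8:100234001-102032000, spans 1798 kb between A330008L17Rik and Cdh11 (a cadherin), with 737 bins. It stood at 0.26 and 0.38 in serum, 0.36 and 0.40 at 24 h, and 0.30 and 0.42 in LT2i, so the conditions overlapped. The block chr18:28100001-29772000 between Gm7729 and Pik3c3 (a lipid kinase of autophagy) had 0.45 and 0.54 in serum and 0.57 and 0.65 in LT2i, just above. At chr8:50022001-51694000 between 4930555F03Rik and Gm9892 the values overlapped, with 0.18 and 0.30 in serum and 0.27 and 0.39 in LT2i. The block chr10:15698001-17136000 between Nmbr (a neuromedin receptor) and Cited2 (a transcriptional co-regulator) moved most of the 5, from 0.25 and 0.38 to 0.47 and 0.58. At chr3:42260001-43680000, between D3Ertd751e and Pcdh10 (a protocadherin), serum gave 0.30 and 0.44 and LT2i 0.38 and 0.48. In the limma test of 100-kb windows described below, 3 of 18, 1 of 16, 3 of 15, 3 of 16 and 2 of 14 desert windows of these blocks passed the threshold between serum and LT2i, where 47.3% of all windows did. The first and the third block each had 2 windows higher and 1 lower, and the calls in the others were higher.

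The 3 blocks with the highest serum level stood higher still in LT2i, without overlap. They were chr8:103366001-103596000 between Gm8730 and Cdh5 (a cadherin of endothelium), at 0.77 and 0.77 in serum and 1.06 and 1.05 in LT2i, chr3:143464001-143688000 between Gm2574 and Lmo4, and chr12:25598001-25802000 between Id2 and Rnf144a. The lowest was chr17:16328001-16472000 between Rgmb and BC002059, at -0.40 and -0.19 in serum, 0.02 and 0.00 at 24 h and -0.03 and 0.07 in LT2i. This block rests on 45 bins and 785 serum input reads. The other low blocks, chr10:47490001-47712000 (Hace1 to Grik2) and chr1:7722001-7858000 (Gm9826 to Sntg1), reached 0.71 and 0.81, and 0.50 and 0.64, in LT2i, where the median block had 0.51.

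The blocks with the largest changes were picked by that change, and their values are given as a description. The largest difference upward was in the Hace1 to Grik2 block, which went from -0.17 and -0.08 in serum through 0.16 and 0.19 at 24 h to 0.71 and 0.81 in LT2i. Grik2 codes for a kainate glutamate receptor and Hace1 for a ubiquitin ligase, and they lie 1387 kb and 1778 kb away from this block. All 870 desert bins of that interval together went from 0.10 and 0.22 to 0.44 and 0.55, less than the block alone. The blocks chr3:21068001-21192000 (Agtr1b to Tbl1xr1) and chr15:49654001-49892000 (Csmd3 to Trps1) differed by 0.75 and 0.72. The 3 largest differences downward were in 2 intervals. At chr11:39028001-39508000, between Gm12130 and Gm12132, 208 bins went from 0.25 and 0.40 in serum to -0.15 and -0.02 in LT2i, with 0.25 and 0.28 at 24 h. The 2 blocks on chromosome 14 between Slitrk1 and Slitrk6, neuronal membrane proteins, went from 0.45 and 0.53 to -0.04 and 0.15 and from 0.37 and 0.40 to -0.03 and 0.01. All 4 of these flanking genes were at the floor in all 12 RNA-seq libraries. The 3 desert bins with the highest serum ratios (2.43 to 2.52) rest on 7 serum input reads each, the lowest value in that column, and stood at 0.79 to 1.22 in LT2i.

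**Figure D5:**
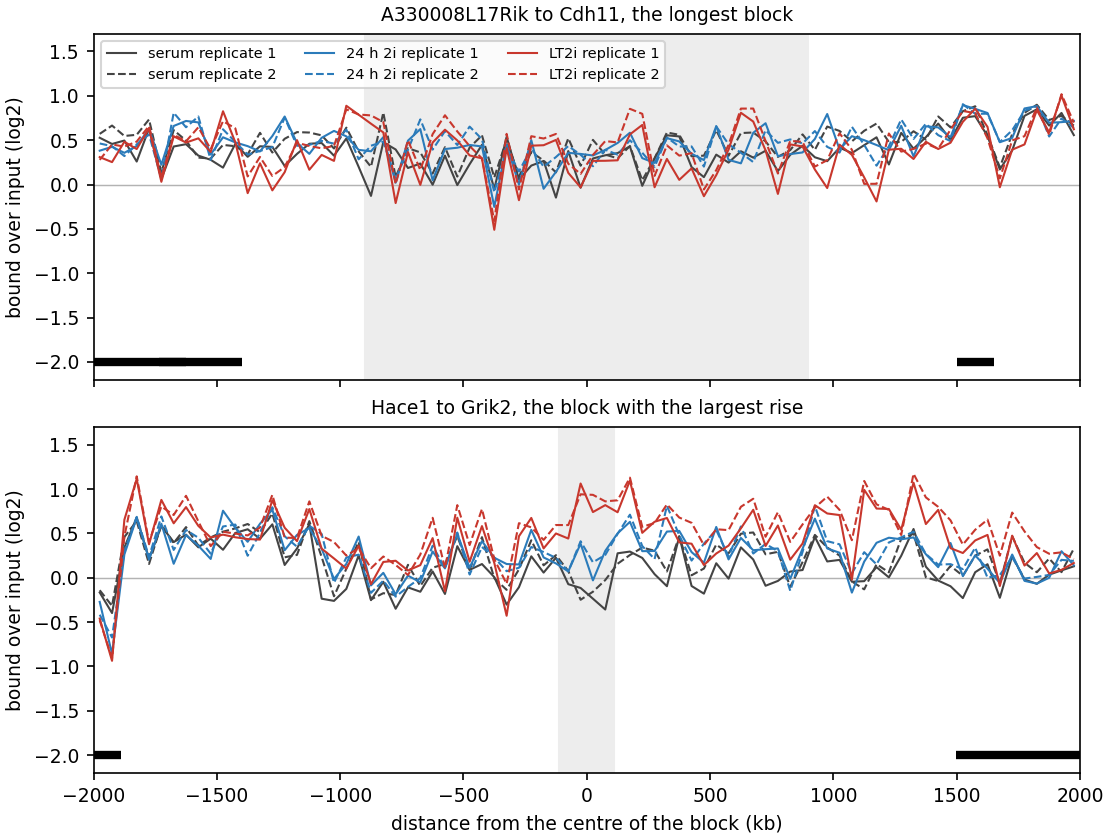
H3K9me2 over input (log2, 50-kb steps with 5 or more bins) across 2000 kb either side of the centre of the longest block (top) and of the block with the largest rise to LT2i (bottom), 1 line for each bound library. Grey marks the block and black bars the gene rows, and the LT2i lines lie above the serum lines across the block in the lower panel but cross them in the upper one.

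Changes were tested in 100-kb windows with limma, on bound over input, with Benjamini-Hochberg adjustment over all 23461 autosomal windows. Each condition has 1 input, so the spread in this fit came from the bound pairs alone. The error of the inputs was taken to be of that size and was not measured. Of 1281 desert windows (all bins in deserts), 311 rose from serum to LT2i and 29 fell at an adjusted p under 0.05. These are 24.3% and 2.26% of the desert windows, or 26.5% in either direction, where over all windows 15.3% rose, 31.9% fell and 47.3% changed in either direction. The median change was 0.141 over desert windows and -0.0352 over all windows. Leaving out 1 library leaves 1 in that condition, so only the size of the change is given for those fits. Over desert windows and over all windows the median was 0.0799 and -0.0517 without serum replicate 1, and 0.206 and -0.0231 without serum replicate 2. It was 0.194 and -0.0318 without LT2i replicate 1, and 0.0928 and -0.0429 without LT2i replicate 2. With the bound libraries alone it was 0.259 over desert windows and 0.0147 over all windows. Windows that rose did so by 0.243 to 1.01 (log2), with a median of 0.464, and those that fell had a median of -0.379. Most desert windows (941) did not pass, at a median standard error of 0.136. At 24 h no desert window passed in limma, with 61 of 1281 (4.76%) at an unadjusted p under 0.05, and over all windows 0.00426% were called. At 24 h 75.2% of desert windows had a change above 0, against 48.4% of the others, and the median change of desert windows was 0.0810 with all libraries and 0.0160 without serum replicate 1. Without the inputs in the contrast, 876 desert windows were called in LT2i (845 higher and 31 lower), where over all windows 36.6% rose and 39.0% fell. At 24 h that fit called 72, all higher, with 1.91% of all windows higher and 3.50% lower.

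Single 2-kb bins were tested on the bound libraries alone. In limma 3350 of 55518 desert bins (6.03%) rose and 238 (0.429%) fell from serum to LT2i, against 3.06% and 8.71% of all autosomal bins. The median change over all bins was -0.145, that over desert bins 0.223. With the input in the contrast these medians were -0.222 and 0.110, and with the medians of the libraries set equal 0.0128 and 0.381. In the latter fit 5897 desert bins rose and 98 fell, beside 55800 and 63104 of all 995960 bins. Over all bins the share of calls that were higher went from 26.0% to 46.9%. Calls in single bins did not hold up when 1 library was left out, which leaves 1 library in that condition. The median change of desert bins was then 0.155 without serum replicate 1 and 0.278 without serum replicate 2. It was 0.289 without LT2i replicate 1 and 0.187 without LT2i replicate 2. With the input in the contrast 0 bins were called. At 24 h no bin was called in limma, with 3729 desert bins (6.72%) at an unadjusted p under 0.05 and 0% called over all bins.

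Expression was followed in the genes at the edges of deserts. The nearest gene row on either side of a block gave 415 genes (1.695% of autosomal rows), with a median span of 41.7 kb against 13.7 kb for all autosomal rows. Some belong to families of cell adhesion and axon guidance, which were counted after the names were seen and carry no test. Cadherins and protocadherins with numbered symbols contributed 14 of 33 autosomal rows (among them Cdh5, Cdh9, Cdh11, Cdh20, Pcdh10 and Pcdh17), contactins and their partners 5 of 13, the Robo, Slit and Slitrk genes 5 of 11, and ephrins with their receptors 5 of 21. At the floor in all 12 libraries were 98 flanking genes (23.6%), close to the 22.4% of all autosomal rows. Among those above the floor in 3 or more libraries (302 genes), the median serum level was 0.38 on the log2 scale of the table, which is per gene length, and that of 17847 autosomal genes 1.25.

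More flanking genes fell than rose at each time in 2i. At 6 h 19 of the 302 tested rose and 22 fell, where 7.71% and 4.90% of all 18559 genes tested did and 12.6% changed in either direction (limma, adjusted p under 0.05). At 24 h 53 rose and 103 fell, beside 27.5% and 23.4% of all genes, of which 50.9% changed in either direction. At 72 h 40 rose (13.2%) and 94 fell (31.1%), beside 22.0% and 22.2% (44.2% in either direction). The median change of flanking genes was -0.349 at 24 h and -0.291 at 72 h, and that of all genes 0.0817 and -0.0363. These medians are over genes above the floor. Without that filter the median was 0.00576 at 24 h and -0.0965 at 72 h over flanking genes and over all genes alike. With values under 0 set to 0 it was 0 for both. Genes at the floor or at 0 fix those medians, so they cannot show whether the gap holds. Without the filter 47 of 415 flanking genes rose and 105 fell at 24 h, beside 4813 and 4153 of 25965 genes. At 72 h 39 rose and 92 fell, beside 3925 and 3924. With values under 0 set to 0, 34 of 302 rose and 72 fell at 24 h, beside 3495 and 3271 of 18559. At 72 h 20 rose and 59 fell, beside 2696 and 2857. At 6 h the medians above the floor were 0.0245 for flanking and 0.0477 for all genes. The 41 flanking genes called at 6 h fell to between 22 and 28 when any 1 library was left out. These RNA-seq comparisons share the serum libraries. The 10 largest changes among flanking genes called at 72 h with a change of 1 or more on the log2 scale are given next.

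Myc, the growth-promoting transcription factor, had 5.22, 5.05 and 5.23 in serum, 1.25, 1.15 and 1.31 at 6 h, and -0.72, -0.65 and -0.50 at 72 h. The groups lay far apart, and the fall at 72 h was by 5.79 ± 0.12 (SE, limma adjusted p = 2.61e-10). Sox11, a factor of neural development, went from 2.84, 2.81 and 3.12 to -0.78, -1.41 and -1.03, Etv1, an ETS factor, from 2.28, 2.44 and 2.37 to -1.20, -2.24 and -1.24, and Celf4, an RNA-binding protein of neurons, from 1.74, 1.80 and 1.82 to -2.35, -1.82 and -1.94. All 3 fell without overlap between serum and 72 h. Among adhesion genes, Cdh9 had -1.01, -0.33 and -0.81 in serum and was at the floor in all 72 h libraries, and Pcdh17 fell from -2.62, -2.002 and -2.27 to between -7.77 and -7.51, with 1 of the 3 at the floor. Itga1, an integrin subunit, fell by 4.64 ± 0.43. The other 3 of the 10 rose. Ntrk3, the neurotrophin-3 receptor, went from -6.62, -5.35 and -3.73 to -0.39, -1.56 and -0.04, Cdh20 from -4.65, -6.12 and -5.52 (1 at the floor) to -1.53, -1.76 and -1.51, and the predicted gene Gm5096 from -2.54, -4.86 and -2.41 to 2.63, 2.53 and 2.18. At the edges of the blocks named above 24 of 30 genes were tested, of which 2 rose and 8 fell at 72 h, and examples chosen after their values were seen follow. Id2, an inhibitor of bHLH factors, fell by 1.68 ± 0.22, Lmo4, a LIM-only cofactor, by 1.55 ± 0.18 and Cited2 by 1.00 ± 0.089 (adjusted p = 7.47e-05, 3.32e-05 and 4.21e-06 in limma). Pcdh10 had -4.64, -4.79 and -6.34 in serum and was at the floor in all 24 h and 72 h libraries. The predicted gene Gm9892 rose by 0.85 ± 0.20 and Rnf144a, a ubiquitin ligase, by 0.43 ± 0.14 (adjusted p = 0.00514 and 0.0277 in limma), while Hace1 changed by -0.23 (adjusted p = 0.323) and Trps1 by 0.13 (0.720). Low levels such as these of Ntrk3 and Cdh20 rest on few reads.

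Genes that write, erase or read H3K9 methylation, or that tie chromatin to the lamina, were followed as a list of 28. At 6 h 2 rose and 2 fell, at 24 h 2 rose and 17 fell, and at 72 h 1 rose and 12 fell (limma, adjusted p under 0.05, over all genes tested, with the genome-wide shares given above), with a median change of -0.290 at 72 h. The 2 rises at 6 h were not called with quantile normalisation or without any 1 of 5 of the 6 libraries compared (1 gene rose without serum replicate 3), whereas 2 genes fell in each of these fits. Among writers and their partners at 72 h, Ehmt1 fell by 1.41 ± 0.18 (SE), Ehmt2 by 1.11 ± 0.12 and Zfp644, a partner of both, by 0.84 ± 0.14. Suv39h1 fell by 0.36 ± 0.11, while Setdb1 (-0.39, adjusted p = 0.0682 in limma) did not pass. Setdb1 had fallen by 1.05 ± 0.16 at 24 h (adjusted p = 0.000273 in limma). Of the 7 erasers, Kdm4c alone passed at 72 h, falling by 1.11 ± 0.14. At 24 h Kdm4c (by 1.35 ± 0.14), Kdm3b (1.16 ± 0.20) and Kdm3a (0.97 ± 0.12) fell. Kdm4b (0.84 ± 0.17) and Phf8 (0.81 ± 0.22) fell at that time too, while Kdm4a and Phf2 did not pass. Readers that fell at 72 h were the HP1 proteins Cbx5 (by 1.26 ± 0.17) and Cbx1 (by 0.83 ± 0.080), and Cdyl (by 0.28 ± 0.090). Uhrf1, which reads this mark and hemimethylated DNA, changed by 0.07 (adjusted p = 0.644 in limma). In the lamina, Lmna (1.06 ± 0.14), Lmnb2 (0.86 ± 0.14), Lmnb1 (0.82 ± 0.15) and Tmpo (0.30 ± 0.10) were lower, and Lemd3, an inner nuclear membrane protein, rose by 0.70 ± 0.13. These are levels of RNA, at times other than LT2i.

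The RNA-seq libraries carried the markers of ESCs in every group, with Pou5f1 between 7.73 and 9.01 and Nanog between 6.62 and 8.63 on the log2 scale. The 6 ESC markers followed lay between 5.68 (Esrrb) and 11.3 (Dppa5a) over all libraries, and the 10 markers of fibroblasts, primitive endoderm, mesoderm and neural cells between -4.13 (Col3a1) and 2.80 (Col1a1). Col1a1, a collagen of fibroblasts, lay between 2.32 and 2.74 in serum and 1.38 and 1.68 at 72 h, and the neural factor Pax6 between -0.11 and 0.02 in serum and -2.85 and -2.62 at 72 h. Another neural marker, Sox1, averaged 0.04 before the switch, -0.76 after 6 h, 0.62 after 24 h and 0.17 after 72 h. Of the primitive endoderm markers, Gata6 lay between -0.41 and 0.29 in all libraries, whereas Gata4 went from a mean of -0.70 in serum to 0.22 at 72 h and Sox17 from -2.27 in serum to -1.07 at 24 h and -1.68 at 72 h. The part of such cells in the results above was not tested, and in bulk samples fewer cells of a type cannot be told apart from less RNA per cell.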

How the data were processed

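The H3K9me2 values the authors deposited are log2 read numbers in 2-kb bins. Each library was scaled up to the deepest one (the 24 h input), empty bins stand at 0.9 reads, and inputs have their own columns. For RNA-seq the deposited values are log2 expression per gene, corrected for length and depth and set to a common 75th percentile. The processing notes name GRCm38, Trim Galore 0.3.5, Bowtie2 and TopHat2 2.0.11, with no counting parameters. Undoing the scaling gave whole reads within 2% for all bins. This limit is a share of the read number, so it is strict only in bins with few reads. Bisulfite files use another build and were not used.

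Members and lists were chosen with earlier results of these data known. Bound over input was computed from summed reads. Library values were compared by exact permutation, windows, bins and genes with limma 3.58.1 in R 4.3.3 (trended variances, Benjamini-Hochberg). Genes needed values above the floor in 3 or more libraries. Named blocks were the 5 longest and, among those of 100 kb or more, the 3 at each extreme of serum level and of change; named flanking genes were the 10 largest changes past the threshold at 72 h. The 5 printed promoters and gene families were chosen after values were seen. On simulated data with 200 changed features, 175 windows (2-fold), 127 bins (8-fold) and 84 genes (2-fold) were recovered, and 7, 0 and 12 unchanged ones were called, for genes a larger share of calls than the threshold of 0.05. Reads are not independent molecules, so counting precision is an upper limit. Alternatives covered the distance limit, comparison bins, inputs, scaling, filters and single libraries.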

Additional observations from a re-analysis of the deposited data

How the results depend on the processing

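The log2 enrichment of deserts over input lay between 0.383 and 0.802 under other distance limits, filters and means, and both changes from serum kept their sign. The change to LT2i was 0.298 with the mean of the 3 inputs and 0.457 as a difference of mean log2 reads, against 0.187. Against bins 100 to 500 kb from a gene the enrichment was -0.0451, the change to 24 h 0.0291 and the change to LT2i -0.0122. Leaving out 1 library gave an enrichment of 0.420 to 0.461 (exact permutation p = 0.0556, the smallest 18 arrangements allow), and changes of 0.0190 to 0.143 at 24 h and 0.1249 to 0.249 in LT2i. Without inputs 876 of 1281 desert windows were called in LT2i, beside 8577 higher and 9156 lower of all 23461. At 24 h that fit called 72, beside 448 higher and 822 lower. At 20 kb 779 of 7113 desert windows were called in LT2i (669 higher, 110 lower), beside 7261 higher and 23019 lower of all 115626. Desert bins called numbered 0 with the input in the contrast, 5995 with equal medians, 6008 with log2(reads + 2) and 0 to 537 without 1 library. Flanking genes called at 6 h without 1 library were 22 to 28 of 302, beside 880 to 1107 higher and 568 to 651 lower of all 18559. With only the 6 libraries compared 71 were called at 6 h (31 higher, 40 lower), beside 2306 and 1732. With values under 0 set to 0, 79 were called at 72 h (20 higher, 59 lower), beside 2696 and 2857. Of the list of 28, 2 genes were called at 6 h with quantile normalisation, beside 1258 higher and 1050 lower of all 18559. Without 1 library 2 to 3 of the list were called at 6 h, against 4 with all libraries. Windows with 25 or more bins, an alternative chosen after the data were seen, gave 333 of 1235 desert windows called in LT2i. Over all 22459 such windows 3423 were higher and 7438 lower.

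Same-numbered samples did not all deviate together (the bar for pairing was a correlation over 0.1 in every pair), and a shared culture or day for some of them was not tested. Correlations of deviations between same-numbered ChIP-seq libraries were 0.0295, 0.428 and 0.0247, and for RNA-seq they ran from -0.0820 to 0.180 for replicate 1, 0.00731 to 0.274 for replicate 2 and 0.172 to 0.520 for replicate 3, where all pairs were over that bar. With the replicate number as a block, 458 desert windows were called in LT2i, beside 4571 higher and 8072 lower of all windows. The same block gave 4289 desert bins, beside 36313 higher and 96460 lower of all bins. For flanking genes at 72 h it gave 149, beside 4724 higher and 4730 lower of all genes tested. The desert windows that fell went from 29 to 45 and all windows called at 24 h from 1 higher and 0 lower to 11 and 11. The library changes had p = 0.5 (exact permutation, the smallest it allows) against 0.33 without the block. The comparison of 2-kb bins within classes of GC content was not run, as sequence was read only for the promoter windows. Single bins hold few reads, which limits calls in them.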
